A study of Mus musculus with 12 samples.

Results

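The subunits of the mitochondrial respiratory chain and of ATP synthase were examined in tumors grown from mTC11 mouse lung cancer cells with and without knockdown of *Filip1l*. Genes were taken as members by their symbols alone, which covered NADH dehydrogenase (complex I), succinate dehydrogenase (complex II), the cytochrome bc1 complex (complex III), cytochrome c oxidase (complex IV) and ATP synthase (complex V). The rule found 94 of the 15687 genes measured, with 43 genes of complex I, 4 of complex II, 10 of complex III, 19 of complex IV and 17 of complex V, and *Atp5s*, a factor associated with ATP synthase. *Ndufs6b*, annotated as a processed pseudogene, is counted in complex I by its symbol. Nuclear DNA encodes 83 of them and mitochondrial DNA (mtDNA) 11. *Cox7b2*, *Cox8c*, *mt-Atp8*, *mt-Nd4l* and a second entry named *Atp5o* carry matching symbols and were not analysed here.

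RNA was sequenced from 12 subcutaneous tumors, 6 labelled shControl (CTL) and 6 labelled as *Filip1l* knockdown (KD). All tumors came from the same lung cancer cells, transduced with lentiviral shRNA and kept as puromycin-resistant clones, and 1000000 cells in growth factor-reduced Matrigel were placed under the skin of male C57BL6/J mice aged 8 weeks. Tumors were taken on day 24 and frozen whole, so host cells contribute to each library, and in such bulk RNA fewer cells of a type and less RNA per cell cannot be told apart. The labels do not say which of the shRNA targets the sequenced tumors carried. CTL and knockdown tumors grew from separately transduced and selected derivatives of these cells. The knockdown and any other difference between the derivatives therefore cannot be told apart, and the p-values rest on the spread between tumors only.

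The respiratory chain passes electrons from NADH and succinate through complexes I to IV to oxygen and pumps protons across the inner mitochondrial membrane, and ATP synthase uses the return of these protons to make ATP. The complexes are built from products of both genomes, with the mtDNA genes giving most of the proton-pumping core. Several nuclear subunits of complex IV come as pairs of genes, one used in most tissues and one used mainly in heart and skeletal muscle, among them *Cox6a1* and *Cox6a2*, *Cox7a2* and *Cox7a1*, and *Cox8a* and *Cox8b*. Promoters of nuclear respiratory genes are known for binding sites of NRF1, of ETS factors such as GABP, and of YY1.

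The promoter windows of these isoform genes are shown because the muscle forms and their partners gave the widest range of values among the members. Each window runs from 250 bases before the annotated start of transcription to 50 bases after it, on the strand of the gene, and comes from RefSeq on GRCm38.p6. The table holds no window of *Cox6a2*. Capitals mark letters that matched one of the motifs searched on both strands: the NRF1 core (GCGCATGCG), an ETS site (CCGGAAG), a YY1 site (AAGATGGC), the CCAAT box, a TATA box (TATAAA), a MEF2 site (CTAAAAATA) and a muscle E-box (CAGCTG), of which none contains another. *Cox8b* lies at chr7:140900397-140900696, - strand, *Cox8a* at chr19:7217567-7217866, - strand, *Cox7a1* at chr7:30183921-30184220, + strand, *Cox7a2* at chr9:79759804-79760103, - strand and *Cox6a1* at chr5:115348909-115349208, - strand.
Cox8b: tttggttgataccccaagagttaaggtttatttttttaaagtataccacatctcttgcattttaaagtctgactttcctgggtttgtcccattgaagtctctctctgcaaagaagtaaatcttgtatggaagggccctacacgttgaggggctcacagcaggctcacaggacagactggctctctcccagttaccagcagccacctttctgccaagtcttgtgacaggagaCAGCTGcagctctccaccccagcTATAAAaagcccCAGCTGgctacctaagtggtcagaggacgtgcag
Cox8a: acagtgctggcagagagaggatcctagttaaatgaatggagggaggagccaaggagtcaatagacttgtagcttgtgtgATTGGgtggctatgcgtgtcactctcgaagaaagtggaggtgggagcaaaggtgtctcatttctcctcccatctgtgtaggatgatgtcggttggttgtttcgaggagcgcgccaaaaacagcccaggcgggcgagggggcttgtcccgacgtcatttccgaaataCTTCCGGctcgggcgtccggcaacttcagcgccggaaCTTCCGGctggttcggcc
Cox7a1: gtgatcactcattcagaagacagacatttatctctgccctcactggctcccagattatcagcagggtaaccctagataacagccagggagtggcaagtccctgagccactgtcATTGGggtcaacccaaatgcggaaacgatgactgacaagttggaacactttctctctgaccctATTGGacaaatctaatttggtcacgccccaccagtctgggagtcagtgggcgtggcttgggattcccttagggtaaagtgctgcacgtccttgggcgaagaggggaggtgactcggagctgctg
Cox7a2: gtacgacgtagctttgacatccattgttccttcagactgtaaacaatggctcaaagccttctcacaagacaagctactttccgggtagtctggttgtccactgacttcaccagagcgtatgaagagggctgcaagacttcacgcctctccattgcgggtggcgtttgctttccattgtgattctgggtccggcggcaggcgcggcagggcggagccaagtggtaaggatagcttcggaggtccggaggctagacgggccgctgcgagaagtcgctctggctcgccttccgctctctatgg
Cox6a1: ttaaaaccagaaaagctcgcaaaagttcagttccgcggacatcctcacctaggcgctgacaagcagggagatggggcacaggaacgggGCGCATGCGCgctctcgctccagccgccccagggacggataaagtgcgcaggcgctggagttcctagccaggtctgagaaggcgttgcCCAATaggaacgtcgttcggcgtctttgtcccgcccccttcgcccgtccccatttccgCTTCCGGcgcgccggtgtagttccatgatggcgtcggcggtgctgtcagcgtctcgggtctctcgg

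The *Cox8b* window held TATAAA at base 255 and an E-box on each side of it, at bases 232 and 267. The *Cox8a* window held the ETS letters at bases 246 and 283 and a CCAAT box, and the *Cox6a1* window held the NRF1 core, on both strands in 1 run of letters, a CCAAT box and an ETS site. In *Cox7a1* only 2 CCAAT boxes were found, and *Cox7a2* held none of the 7 motifs. Over all 71 windows of the 66 member genes with an entry, the NRF1 letters stood in 8 windows (11.3%), against 1.75% of all 32851 windows of this length. These 8 belonged to *Atp5g2*, *Atp5k*, *Atp5l*, *Cox6a1*, *Ndufa8*, *Ndufa11*, *Uqcr11* and *Uqcrc1*. The windows called all windows come from 27025 genes, whether or not these were measured in the tumors. The ETS letters stood in 22.5% of member windows and 8.86% of all windows, and the YY1 letters in 12.7% and 2.75%. The muscle E-box stood in 8.45% of member windows and 16.3% of all windows, TATAAA in 9.86% and 13.6%, and the CCAAT box in 40.9% and 37.4%. The MEF2 letters stood in 0 member windows and in 0.518% of all windows. A match of letters describes the window and does not show that a factor binds there.

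The CTL libraries held 17834745 to 29502069 reads on the listed genes and the knockdown libraries 25460564 to 32419578, and 3 reads were worth 2.65 to 4.48 normalized counts in CTL tumors. A normalized count is the number of reads on a gene divided by the size factor of the tumor. *Filip1l* itself ranged from 1983 to 2542 normalized counts in CTL and from 1670.1 to 2184 in knockdown tumors, with a log2 fold change of -0.26 (SE 0.073, limma adjusted p = 0.00998), and the groups overlapped. Markers fixed for the labelled lung epithelium were low, since *Nkx2-1* had a median of 14.5 normalized counts in CTL tumors and *Sftpc* 1.32, below the worth of 3 reads, while the general epithelial genes *Krt8* and *Epcam* had medians of 57061 and 5449.9. KD replicate 1 and CTL replicate 5 stood farthest from the other tumors of their groups, with mean distances of 93.9 and 81.8 in log2 values over all genes, against 68.0 to 81.0 for the other 10.

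Most nuclear subunit genes were modestly higher in *Filip1l*-knockdown tumors. At an adjusted p under 0.05 (limma on log2 of the normalized count plus 1, Benjamini-Hochberg over all 15687 genes), 56 of the 94 members (59.6%) rose and 1 fell, against 21.1% of all genes that rose and 20.7% that fell. The median log2 fold change was 0.33 over the members, or 1.25-fold, and 0.0078 over all genes. In either direction 57 members (60.6%) and 41.9% of all genes passed. A log2 change beyond 1 as well, which the study also required, was met by 2 members (2.13%), *Cox6a2* and *Cox8b*, both higher, against 10.2% of all genes in either direction and 6.2% as higher. The CTL mean of *Cox8b* (6.22 normalized counts) lay under the lowest mean of any gene listed (9.28), so that this gene was measured only through its knockdown values and had to differ. In 13 members (13.8%) every knockdown tumor stood above every CTL tumor, against 10.6% of all genes, and in 0 members was the order the opposite (10.9% of all genes). Without CTL replicate 5 and KD replicate 1, 64 members rose and 1 fell.

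The count of members that rose changed when gene length and base composition were allowed for. Members had a median exonic length of 1471.5 bases, against 4095 over all genes, and a median GC content of 49.5% against 49.8%. After trends of the log2 values with GC content and length had been removed in each tumor, 22 members (23.4%) rose and 8 (8.51%) fell, against 17.8% and 25.5% of all genes. The median log2 fold change was then 0.10 for members and -0.052 for all genes. On that scale the share of members that rose was near the share of all genes, and the share that fell was below it. Values given below are without this removal unless it is named. The shares of all genes to set beside the counts that follow are 21.1% higher and 20.7% lower without the removal. With it they are 17.8% and 25.5%.

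**Figure D1:**
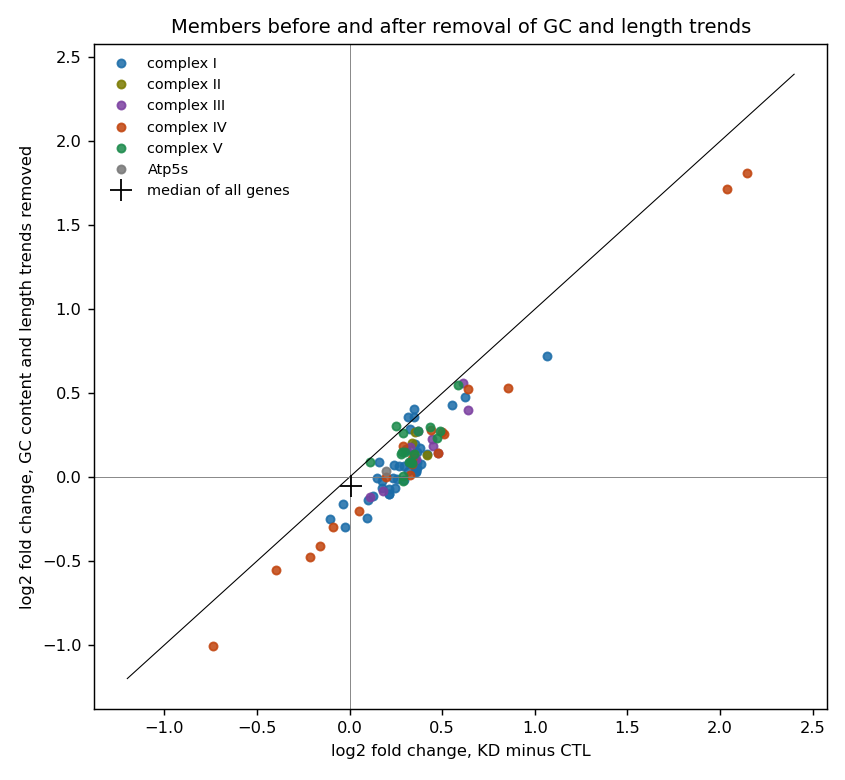
Log2 fold change of each of the 94 members with GC and length trends kept (horizontal axis) or removed (vertical axis), colored by complex, with the median of all genes as a cross and the line of equality. Most members lie below the line, and the median of the members is 0.33 on the horizontal and 0.10 on the vertical axis.

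The rise was uneven between tumors of a group. As the median over the 83 nuclear members of the log2 difference from the CTL mean, CTL tumors 1 to 6 stood at -0.10, -0.076, 0.22, 0.18, -0.069 and -0.10, and KD tumors 1 to 6 at 0.027, 0.46, 0.31, 0.17, 0.46 and 0.53. CTL replicates 3 and 4 were thus as high as KD replicate 4 and higher than KD replicate 1. In CTL replicates 3 and 4, 76 and 77 of the 83 nuclear members stood above the CTL mean, against 6 to 12 in the other CTL tumors and 47 to 80 in knockdown tumors. Nuclear members together took 0.723% to 0.836% of all normalized counts in CTL tumors and 0.810% to 1.04% in knockdown tumors. The sum of the 5 epithelial markers was 135210 to 175850 normalized counts in CTL and 188320 to 352180 in knockdown tumors, where it was highest in KD replicates 6, 5 and 2, the tumors with the highest medians of the members, and lowest in KD replicate 1. In CTL tumors its 3 highest values were in replicates 4, 5 and 3. The part of tumor cell content in the values of the members was not tested.

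**Figure D2:**
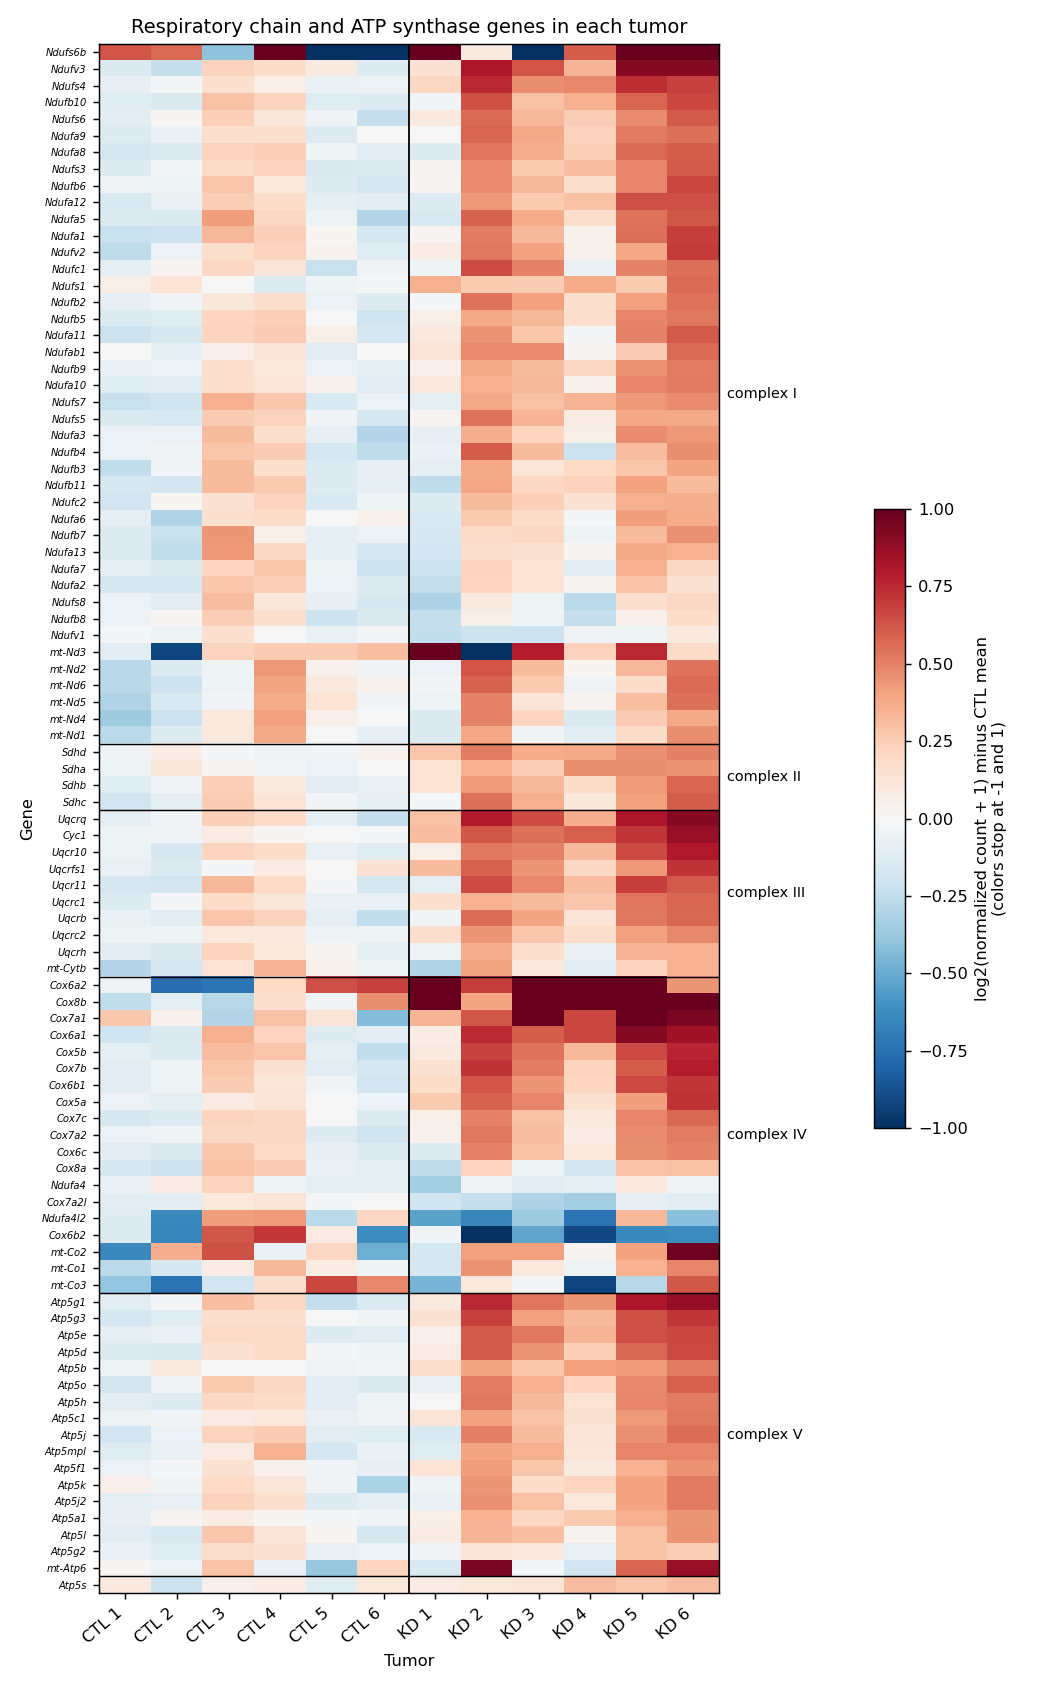
Difference of 93 of the 94 members (vertical axis) from their CTL means in each of the 12 tumors (horizontal axis), as log2 of the normalized count plus 1, with colors that stop at -1 and 1. CTL replicates 3 and 4 and KD replicates 2, 5 and 6 stand out as high across most nuclear genes, and KD replicate 1 lies near the CTL mean.

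Complex I, the entry point of electrons from NADH, had 21 of 43 members that rose and 0 that fell. Among its 37 nuclear genes the median log2 fold change was 0.32, and the share that rose was similar for core subunits (4 of 7) and for supernumerary subunits (17 of 30), which surround the core. Once the GC and length trends were removed, 5 of the 43 rose and 3 fell, against 17.8% and 25.5% of all genes. The median of complex I was then 0.067. *Ndufs4*, a supernumerary subunit needed for a stable NADH-oxidizing module, had 1091, 1149.6, 1291, 1210.1, 1104 and 1113 normalized counts in CTL tumors and 1333, 1955, 1600.5, 1614, 1929 and 1863 in *Filip1l*-knockdown tumors. All 6 knockdown tumors were above all CTL tumors (log2 fold change 0.55, SE 0.089, adjusted p = 0.000201). *Ndufv3*, which sits beside the flavoprotein of that module, ranged from 1005 to 1380.4 normalized counts in the CTL group (median 1167) and from 1305 to 2219 in the knockdown group (median 1945). The groups overlapped in 1 knockdown tumor and the rise passed the test (log2 fold change 0.62, SE 0.13, adjusted p = 0.00187). Both were among the 5 that still rose after that removal, at 0.43, adjusted p = 0.00253 for *Ndufs4* and 0.47, adjusted p = 0.00892 for *Ndufv3*.

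The core subunit *Ndufs1*, which carries iron-sulfur clusters, also separated the groups. It ranged from 1575 to 1902 normalized counts in the CTL group (median 1718) and from 2067 to 2571 in the knockdown group (median 2146), a log2 fold change of 0.35 (SE 0.064, adjusted p = 0.000637). *Ndufv1*, the flavoprotein that accepts electrons from NADH, did not pass the test, with 3271 to 3833 normalized counts (median 3387) in CTL and 2893 to 3678 (median 3150.3) in knockdown tumors and a log2 fold change of -0.11, adjusted p = 0.212. *Ndufb10*, a supernumerary subunit of the membrane arm, rose by 0.42 on the log2 scale (adjusted p = 0.0126). Among the smaller rises past the test were those of *Ndufs5* (0.29, adjusted p = 0.0392) and *Ndufa10* (0.31, adjusted p = 0.0138). These last 3 lost their calls with the GC and length trends removed, at 0.14, adjusted p = 0.272 for *Ndufb10*, -0.018, adjusted p = 0.876 for *Ndufs5* and 0.16, adjusted p = 0.147 for *Ndufa10*, and *Ndufs5* also lost its call with chromosome medians removed, with scaling to the 75th percentile, without the mean-variance trend and with the replicate block. The pseudogene *Ndufs6b* was at 0 to 16.9 normalized counts in CTL and 0 to 36.3 in knockdown tumors, near the worth of 3 reads, and its difference did not pass the test (adjusted p = 0.362).

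All 4 genes of complex II rose. This complex is also the succinate dehydrogenase of the citric acid cycle and has no mtDNA-encoded subunit. *Sdhd*, one of the membrane anchors, had 2614, 2822, 2652, 2616, 2632 and 2740.3 normalized counts in CTL tumors and 3250.3, 3816, 3459.7, 3489, 3684 and 3794 in *Filip1l*-knockdown tumors. The groups did not overlap, and *Sdhd* had the lowest adjusted p of all members (log2 fold change 0.42, SE 0.050, adjusted p = 1.55e-05). *Sdha*, the flavoprotein that oxidizes succinate, ranged from 6516 to 7343 normalized counts in the CTL group (median 6750.3) and from 7476 to 9376 in the knockdown group (median 9004), again without overlap (log2 fold change 0.35, SE 0.063, adjusted p = 0.000455). *Sdhb*, the iron-sulfur subunit, and *Sdhc*, the other anchor, rose by 0.35 and 0.34 on the log2 scale, with adjusted p of 0.00399 and 0.0204. With the GC and length trends removed, *Sdha* alone of the 4 passed the test (0.27, adjusted p = 0.0174), and *Sdhd* stood at 0.13, adjusted p = 0.158.

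In complex III, 8 of the 9 nuclear genes rose, with a median log2 fold change of 0.44, and 4 of them separated the groups. *Cyc1*, the cytochrome c1 that passes electrons to cytochrome c, had 1781, 1789.7, 1939, 1841, 1833 and 1801 normalized counts in CTL tumors and 2272, 2810.0, 2684, 2777, 2998 and 3347 in *Filip1l*-knockdown tumors. Every knockdown tumor was above the highest CTL tumor (log2 fold change 0.61, SE 0.075, adjusted p = 2.01e-05), and the rise remained at 0.56, adjusted p = 7.11e-05 after the GC and length trends were removed. *Uqcrfs1*, the Rieske iron-sulfur protein, ranged from 1996 to 2427 normalized counts in the CTL group (median 2189) and from 2543 to 3635 in the knockdown group (median 2975) (log2 fold change 0.45, SE 0.081, adjusted p = 0.000498). *Uqcrq*, a small subunit beside cytochrome b, ranged from 1086 to 1504 normalized counts in the CTL group (median 1223) and from 1559 to 2394 in the knockdown group (median 2102) (log2 fold change 0.64, SE 0.11, adjusted p = 0.000485). Both were without overlap between the groups. *Uqcrc2*, a core protein of the matrix side, was also without overlap, with a log2 fold change of 0.33, adjusted p = 0.00104. The other core protein, *Uqcrc1*, and the small subunits *Uqcr10*, *Uqcr11* and *Uqcrb* rose by 0.36 to 0.48 on the log2 scale. After removal of these trends 5 of the 9 rose, and *Uqcr10*, *Uqcr11* and *Uqcrb* did not pass (adjusted p = 0.141, 0.0754 and 0.372). *Uqcrh*, the hinge protein, was at 2170.4 to 2807 normalized counts (median 2346) in CTL and 2283 to 3098 (median 2872) in knockdown tumors and did not pass the test (adjusted p = 0.134).

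**Figure D3:**
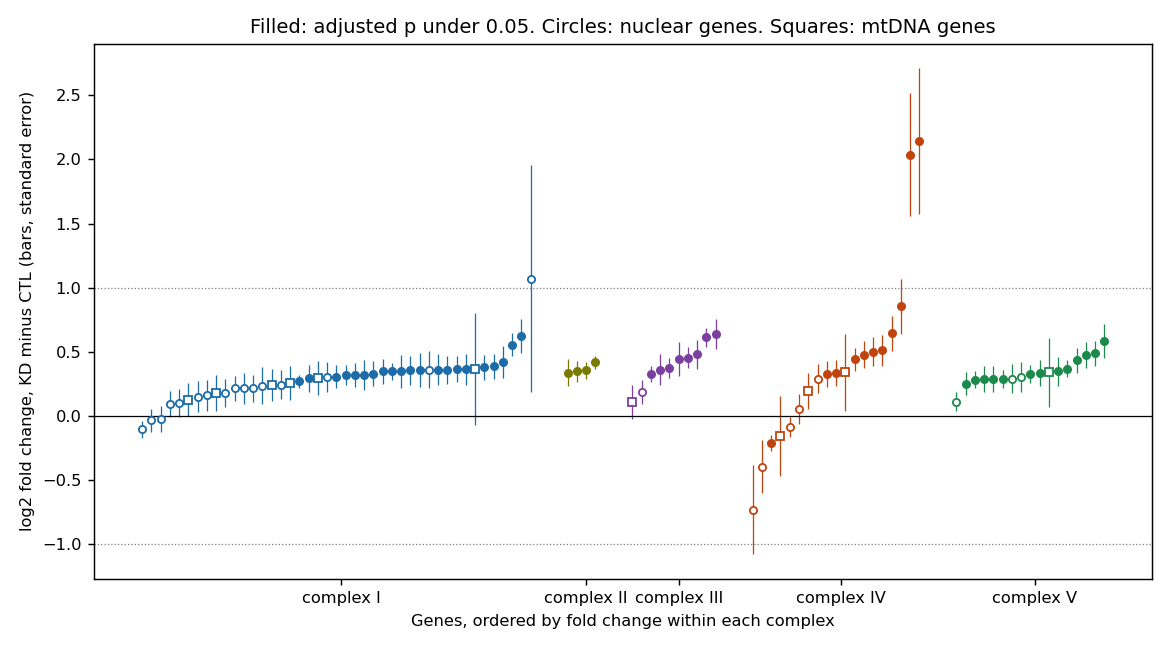
Log2 fold change of each member, KD minus CTL, with its standard error as a bar, ordered within each complex; filled symbols passed an adjusted p under 0.05, circles are nuclear and squares mtDNA genes. Most nuclear genes lie just above 0, *Cox6a2* and *Cox8b* lie at 2.14 and 2.04, and 0 of the 11 mtDNA genes are filled.

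Complex IV, which reduces oxygen, had the widest spread, with 10 of its 16 nuclear genes up and 1 down, and 5 up and 5 down with the GC and length trends removed. *Cox8b*, counted among the genes up in both, was listed only through its knockdown values and had to differ. Among the subunits used in most tissues, *Cox6a1* had 3330.0, 3459, 4884, 4427, 3495 and 3539 normalized counts in CTL tumors and 4012, 6406, 5811, 6071, 7203 and 6811 in *Filip1l*-knockdown tumors. It was lower in KD replicate 1 than in CTL replicates 3 and 4, and the rise passed the test (log2 fold change 0.64, SE 0.13, adjusted p = 0.00159) with or without the GC and length trends (0.52, adjusted p = 0.00155 with them removed). *Cox5a*, which separated the groups, *Cox5b*, *Cox6b1* and *Cox7b* rose by 0.44 to 0.51 on the log2 scale, and *Cox7a2* and *Cox7c* by 0.32 and 0.34. Of these, *Cox5a* and *Cox7b* still passed with the GC and length trends removed. *Cox8a* was at 4281 to 6083 normalized counts (median 4681) in CTL and 4172 to 6071 (median 5288) in knockdown tumors, a log2 fold change of 0.051, adjusted p = 0.766. Its direction depended on the processing, at -0.20, adjusted p = 0.0244 with the GC and length trends removed and at 0.41, adjusted p = 0.0131, with chromosome medians removed.

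*Cox7a2l*, which encodes a factor that joins complexes III and IV into supercomplexes, was the member that fell. It ranged from 4096 to 4827 normalized counts in the CTL group (median 4401) and from 3464 to 4166 in the knockdown group (median 3802), and only KD replicates 5 and 6 overlapped the CTL range (log2 fold change -0.21, SE 0.062, adjusted p = 0.0126). With the GC and length trends removed it fell by 0.48 on the log2 scale (adjusted p = 3.66e-06). *Ndufa4*, now counted as a subunit of complex IV, was at -0.087, adjusted p = 0.391. *Ndufa4l2*, its hypoxia-induced paralog, ranged from 139 to 293 normalized counts (median 225) in CTL and 130.2 to 274 (median 157) in knockdown tumors (log2 fold change -0.40, SE 0.21, adjusted p = 0.148). *Cox6b2*, known as a testis form, ranged from 9.47 to 25.9 normalized counts (median 15.2) in CTL and 4.16 to 15.1 (median 9.56) in knockdown tumors and did not pass the test (log2 fold change -0.74, SE 0.35, adjusted p = 0.107).

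The muscle isoforms of complex IV gave the 3 highest fold changes among the members that rose. *Cox6a2* (ENSMUSG00000030785, chr7:128205435-128206387, - strand) had 21.0, 12.3, 12.6, 24.9, 34.4 and 35.3 normalized counts in CTL tumors and 136, 35.4, 392, 228, 70.9 and 29.7 in *Filip1l*-knockdown tumors. KD replicates 3 and 4 were the highest, KD replicate 6 lay inside the CTL range and KD replicate 2 just above it (log2 fold change 2.14, SE 0.57, adjusted p = 0.00745). *Cox8b* (ENSMUSG00000025488, chr7:140898945-140900446, - strand) had 5.00, 5.68, 4.86, 6.98, 5.98 and 8.82 normalized counts in CTL tumors and 42.4, 8.33, 94.9, 45.0, 23.3 and 13.1 in *Filip1l*-knockdown tumors. Only KD replicate 2 fell inside the CTL range, whose values were close to the worth of a few reads. Its log2 fold change of 2.04 is given as a description, since the gene was listed only through the knockdown group. *Cox7a1* (ENSMUSG00000074218, chr7:30184144-30186078, + strand) had 48.0, 40.7, 32.1, 48.8, 43.3 and 29.1 normalized counts in CTL tumors and 50.4, 61.4, 118, 63.6, 80.4 and 76.9 in *Filip1l*-knockdown tumors. Its groups did not overlap (log2 fold change 0.85, SE 0.21, adjusted p = 0.00534, exact two-sided permutation p = 0.00216, the smallest the design allows). With the GC and length trends removed the log2 fold changes were 1.81, adjusted p = 0.0217 for *Cox6a2*, 1.72 for *Cox8b* and 0.53, adjusted p = 0.0640 for *Cox7a1*, so that the call of *Cox7a1* was lost.

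Per kilobase of exon the muscle forms stayed far below their partners. *Cox6a2* averaged 34.4 normalized counts per kb in CTL and 219 in knockdown tumors, against 5492 and 8621 for *Cox6a1*. The share of *Cox6a2* in the length-corrected sum of the pair was 0.647% ± 0.314 (SD, n = 6) in CTL tumors and 2.61% ± 2.39 (SD, n = 6) in *Filip1l*-knockdown tumors, a difference that did not pass an exact two-sided permutation test (p = 0.0801, n = 6 each). The share of *Cox7a1* was 4.39% ± 0.874 (SD, n = 6) in CTL tumors and 6.34% ± 1.79 (SD, n = 6) in *Filip1l*-knockdown tumors (exact permutation p = 0.0152). The share of *Cox8b* was 0.217% ± 0.0620 (SD, n = 6) in CTL tumors and 1.34% ± 1.16 (SD, n = 6) in *Filip1l*-knockdown tumors, again a description. Without KD replicate 3 the difference of 1.95 percentage points for *Cox7a1* was 1.27 (exact permutation p = 0.0368), and that of 1.12 points for *Cox8b* was 0.729. The share of *Ndufa4l2* beside *Ndufa4* was 12.3% ± 2.96 (SD, n = 6) in CTL tumors and 10.1% ± 2.14 (SD, n = 6) in *Filip1l*-knockdown tumors (exact permutation p = 0.152), and it passed without CTL replicate 2 (exact permutation p = 0.0368). The *Cox6a2* share passed without KD replicate 2, 5 or 6, with exact permutation p of 0.0238, 0.0411 and 0.0238.

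Most skeletal muscle markers also rose in knockdown tumors. Of the 20 markers fixed for skeletal muscle, 18 rose, led by *Myh2* (3.16, adjusted p = 0.00382), *Mb* (2.56, adjusted p = 0.00272), *Myh1* (2.46, adjusted p = 0.00544) and *Myh7* (2.38, adjusted p = 0.000420), and none was at 0 in any tumor. Their sum was 3451 to 16325 normalized counts in CTL and 9028 to 119460 in knockdown tumors. Among knockdown tumors it was highest in replicate 3, then 4, 1, 5, 2 and 6, which is also the order of *Cox6a2*. *Cox8b* had the same order except for replicates 2 and 6, and *Cox7a1* another, with replicates 3, 5 and 6 highest. In CTL tumors *Cox6a2* was highest in replicates 6 and 5, of which replicate 6 had the highest and replicate 5 the lowest muscle sum. Of the 3 heart genes *Myl7* alone passed the test. Its CTL mean (5.34 normalized counts) lay under the lowest mean of any gene listed (9.28), so it was listed only through the knockdown group. Its log2 fold change of 4.48 is therefore given as a description. Of 4 adipocyte genes measured 3 rose, *Cidea* (2.59, adjusted p = 5.40e-06), *Cidec* and *Fabp4*, with a sum of 256 to 442 normalized counts in CTL and 757 to 1195 in knockdown tumors. Another 4 adipocyte markers were not analysed here. The part of muscle, heart or adipose tissue in the values of these isoforms was not tested.

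**Figure D4:**
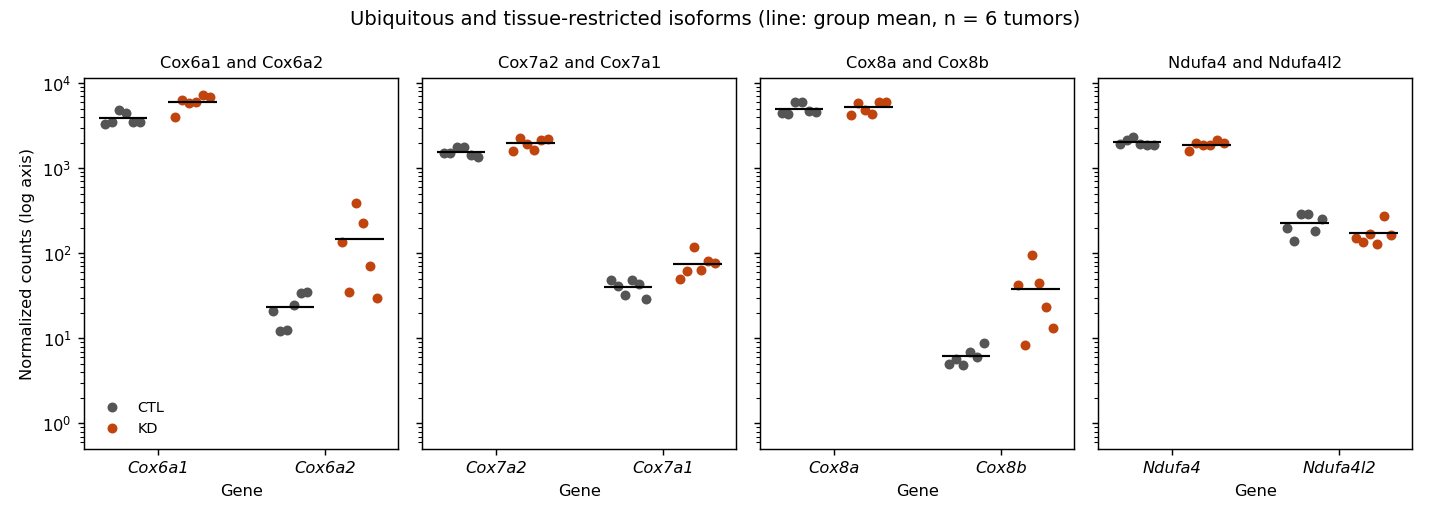
Normalized counts (log axis) of the isoform pairs in the 6 CTL (grey) and 6 KD (orange) tumors, each point a tumor and each line a group mean. *Cox6a2*, *Cox7a1* and *Cox8b* lie far below *Cox6a1*, *Cox7a2* and *Cox8a* and spread widely among KD tumors, from 29.7 to 392 normalized counts for *Cox6a2*.

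ATP synthase had 13 of its 16 nuclear genes up and 0 down. All 5 subunits of the catalytic F1 head rose. After the GC and length trends were removed, 6 of the 16 rose, among them *Atp5b* and *Atp5d* of the F1 head, and *Atp5a1*, *Atp5c1* and *Atp5e* did not pass (adjusted p = 0.143, 0.293 and 0.0649). *Atp5b*, the catalytic beta subunit, had 23250.3, 25650.0, 24196, 24166, 23503 and 23734 normalized counts in CTL tumors and 27214, 31692, 29111, 31978, 32310.4 and 34581 in *Filip1l*-knockdown tumors. The groups did not overlap (log2 fold change 0.37, SE 0.064, adjusted p = 0.000358). The gamma subunit of the rotor, *Atp5c1*, also separated the groups (0.32, adjusted p = 0.00217). *Atp5a1*, the alpha subunit, ranged from 19446 to 21579.9 normalized counts in the CTL group (median 20595) and from 21345 to 27923 in the knockdown group (median 25408) (log2 fold change 0.28, SE 0.066, adjusted p = 0.00366), and *Atp5e*, the epsilon subunit, and *Atp5d*, the delta subunit, rose by 0.47 and 0.43 on the log2 scale. Of the 11 nuclear genes of the membrane part and stalk, 8 rose.

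Subunit c, the ring that turns in the membrane, is encoded by *Atp5g1*, *Atp5g2* and *Atp5g3*, which differ mainly in their import sequences. *Atp5g1* ranged from 1415 to 2050.2 normalized counts in the CTL group (median 1594) and from 1769.8 to 3065 in the knockdown group (median 2611) (log2 fold change 0.58, SE 0.13, adjusted p = 0.00245), and *Atp5g3* ranged from 3925 to 4981 normalized counts in the CTL group (median 4387) and from 4924 to 7299 in the knockdown group (median 6389) (log2 fold change 0.49, SE 0.10, adjusted p = 0.00132). *Atp5g2* was at 2514 to 3089 normalized counts (median 2616) in CTL and 2593 to 3354 (median 2952) in knockdown tumors and did not pass the test (0.11, adjusted p = 0.274). Of its 100-base windows 34.7% also occurred in transcripts of another annotated gene, so that its count is less certain. Per kilobase, *Atp5g3* was the most abundant of the 3 in both groups, with 2043 normalized counts per kb in CTL and 2879.6 in knockdown tumors, against 1636 and 1767 for *Atp5g2* and 342 and 517 for *Atp5g1*. The length used covers all annotated exons of a gene, which can be more than the transcript present holds, so levels per kb of different genes are approximate. Among the smaller rises that passed were those of the small membrane subunits *Atp5l* (0.25, adjusted p = 0.0371) and *Atp5j2* (0.29, adjusted p = 0.0351), of which *Atp5j2* lost its call with the GC and length trends removed (0.15, adjusted p = 0.291). Both lost their calls without the mean-variance trend and with the replicate block, and *Atp5l* also with scaling to the 75th percentile. *Atp5s* was at 109.8 to 137 normalized counts (median 132) in CTL and 134 to 158 (median 145) in knockdown tumors (0.20, adjusted p = 0.138).

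Of the 11 mtDNA-encoded members, 0 passed the limma test, and *mt-Nd2* alone would have passed without adjustment. The median log2 fold change was 0.24, with 10 positive values. All listed mtDNA genes together, some of them outside the members, took 0.938% to 1.40% of all normalized counts in CTL tumors. In knockdown tumors they took 1.03% to 1.49%. A proton-pumping subunit of complex I, *mt-Nd2* was at 13248 to 21652 normalized counts (median 15621) in CTL and 15358 to 24758 (median 20068) in knockdown tumors (log2 fold change 0.30, SE 0.13, adjusted p = 0.0865). *mt-Co1*, which holds the oxygen-reducing site of complex IV, had the highest level of all members per kilobase, and ranged from 119829 to 181716 normalized counts in the CTL group (median 146486) and from 128748 to 203147 in the knockdown group (median 169766) (log2 fold change 0.19, SE 0.14, adjusted p = 0.285). The other complex I genes among the abundant mtDNA genes, *mt-Nd1*, *mt-Nd4*, *mt-Nd5* and *mt-Nd6*, had log2 fold changes of 0.13, 0.18, 0.24 and 0.26. *mt-Cytb*, the mtDNA-encoded subunit of complex III, had 0.11. With the GC and length trends removed, *mt-Co1*, *mt-Cytb*, *mt-Nd1*, *mt-Nd4* and *mt-Nd6* turned to values below 0, from -0.12 to -0.0010. Libraries were made from RNA selected by its poly(A) tail, and most mtDNA transcripts carry short tails. *mt-Nd6* lies on the strand opposite to its neighbor *mt-Nd5*. The counting was not stated to use strand, so reads on *mt-Nd6* could come from transcripts of either strand.

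Among the mtDNA genes, 4 were listed at a few normalized counts, although they belong to the same long transcripts as their neighbors. *mt-Co2* was at 7.0 to 18.5 normalized counts (median 12.2) in CTL and 10.1 to 23.6 (median 15.6) in knockdown tumors, *mt-Co3* at 12.3 to 34.4 normalized counts (median 21.2) in CTL and 10.8 to 33.2 (median 19.1) in knockdown tumors, *mt-Atp6* at 11.9 to 19.4 normalized counts (median 15.6) in CTL and 13.7 to 31.2 (median 19.9) in knockdown tumors and *mt-Nd3* at 4.73 to 12.3 normalized counts (median 11.8) in CTL and 3.12 to 32.3 (median 14.5) in knockdown tumors. The other 7 had CTL means of 7759 to 146083 normalized counts. Of the 100-base windows of these 4 genes, 97.6% to 99.9% also occurred in annotated pseudogenes on chromosome 1, for *mt-Co2* also on chromosome 2, and the authors counted uniquely placed reads. The corresponding shares were 60.8% for *mt-Nd4*, 30.8% for *mt-Co1*, 3.20% for *mt-Nd2* and 0 for *mt-Nd1*, *mt-Nd5*, *mt-Nd6* and *mt-Cytb*. Levels and differences of *mt-Co2*, *mt-Co3*, *mt-Atp6* and *mt-Nd3* are therefore uncertain. Over all members, 67 shared no window with another gene and 18 shared over 5% of theirs. Exons of *Ndufb6*, *Atp5o* and *Ndufa13* overlapped genes of the opposite strand over 39.0%, 35.6% and 30.0% of their length, and those of *Cox6a2* over 10.3% (*Itgad*), and the counting was not stated to use strand.

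**Figure D5:**
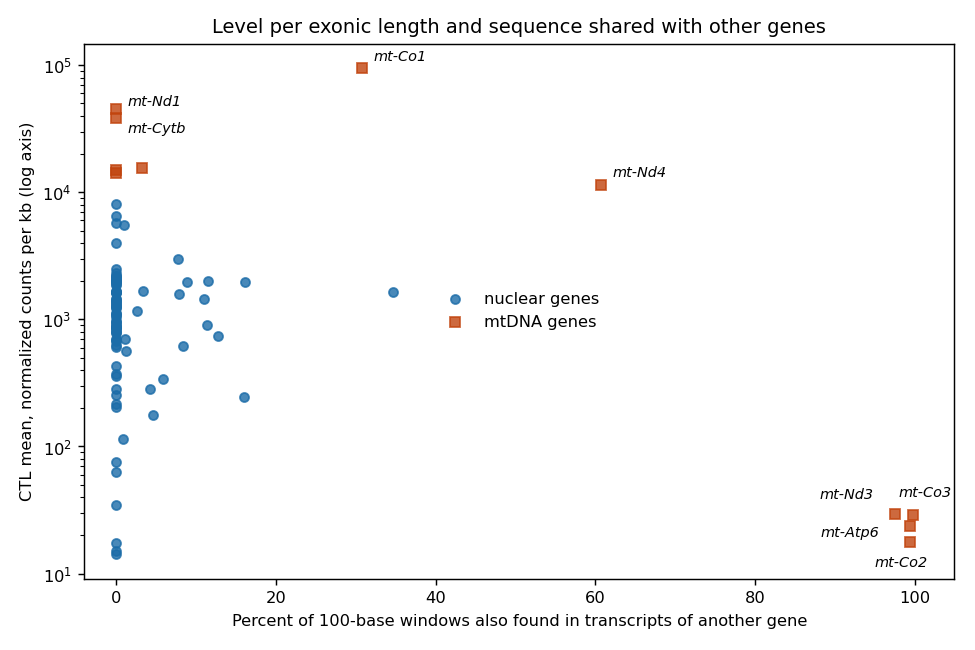
CTL mean of each member in normalized counts per kb of exon (vertical, log axis) against the percent of its 100-base windows also found in transcripts of another gene (horizontal), circles or squares by genome of origin. The 4 mtDNA genes at 97.6% to 99.9% shared windows lie between 17.8 and 29.5, and the other 7 lie at 11509 or above.

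Position on the chromosome also went with the values. The median log2 fold change of all genes averaging 50 normalized counts or more was -0.35 on chromosome 19, -0.19 on chromosome 8 and 0.39 on chromosome 14. The 4 members on chromosome 19, *Ndufv1*, *Ndufb8*, *Ndufs8* and *Cox8a*, had log2 fold changes of -0.11, -0.036, -0.027 and 0.051, and 0 of them passed the test. Both members on chromosome 8, *Ndufa13* and *Ndufb7*, stood at 0.15 and 0.16 and did not pass. No member lies on chromosome 14. With chromosome medians removed 60 members rose and 1 fell, and *Ndufv1* turned to 0.25 (adjusted p = 0.00958).

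Genes that work with the complexes gave mixed counts. Of 13 citric acid cycle genes, 12 rose, among them *Mdh2*, *Suclg2*, *Ogdh* and *Sucla2* (log2 fold changes 0.50, 0.49, 0.49 and 0.46), and the median exonic length of the list was 4302 bases. After removal of the GC and length trends 9 of these 13 rose. Cytochrome c, *Cycs*, which links complexes III and IV, ranged from 1479 to 1927 normalized counts in the CTL group (median 1754) and from 2056 to 3176 in the knockdown group (median 2783) (log2 fold change 0.63, SE 0.10, adjusted p = 0.000244). The subunit genes *Cox4i1* and *Cox4i2*, which the symbol rule did not take, did not pass the test (0.065, adjusted p = 0.675, and 0.14, adjusted p = 0.828). Among 47 assembly factors, which help build the complexes, 16 rose and 2 fell, with *Sdhaf1* (0.57, adjusted p = 0.0129) and *Ecsit* (0.51, adjusted p = 0.000443) the highest and *Sdhaf2* (-0.38, adjusted p = 3.73e-05) and *Uqcc3* (-0.38, adjusted p = 0.0119), both on chromosome 19, the ones that fell. After that removal 5 of the 47 rose and 7 fell, against 17.8% of all genes that rose and 25.5% that fell. Among carriers and porins of the mitochondrial membranes, *Vdac2* on chromosome 14 rose by 1.14, *Slc25a5* by 0.62 and *Vdac1* by 0.43 on the log2 scale, and *Vdac3* on chromosome 8 fell (-0.27, adjusted p = 0.00464).

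Of 21 regulators of mitochondrial biogenesis, 3 rose (14.3%, against 21.1% of all genes) and 4 fell, a share also below that of all genes (20.7%). *Ppargc1a*, the coactivator PGC-1alpha, had 81.0 to 171 normalized counts (median 111) in CTL and 18.6 to 56.5 (median 31.1) in knockdown tumors and fell without overlap between the groups (log2 fold change -1.88, SE 0.26, adjusted p = 5.84e-05). Its relative *Ppargc1b*, PGC-1beta, had 31.9 to 63.5 normalized counts (median 46.1) in CTL and 96.8 to 176 (median 138) in knockdown tumors and rose, also without overlap (log2 fold change 1.51, SE 0.20, adjusted p = 4.39e-05). *Twnk*, the mtDNA helicase, and *Pprc1*, another coactivator of the family, fell, with log2 fold changes of -0.78, adjusted p = 2.83e-05, and -0.70, adjusted p = 2.04e-05, and both lie on chromosome 19. *Nrf1*, whose motif was searched above, was at -0.091, adjusted p = 0.223. *Gabpa*, the DNA-binding subunit of the ETS factor GABP, fell (-0.32, adjusted p = 0.00724), and *Esrra* and *Tfam* rose by 0.33 and 0.15 on the log2 scale (adjusted p = 0.00462 and 0.0207).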

How the data were processed

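RNA of 6 CTL and 6 *Filip1l*-knockdown tumors had been enriched with oligo(dT), prepared with a kit that was not stated to keep strand, and sequenced in pairs. According to the submitters' processing notes and the paper, the authors trimmed reads with Trimmomatic 0.36, aligned them to mm10 with STAR 2.5.2b and counted unique hits per gene with featureCounts (Subread 1.5.2). The deposited values are those read counts divided by DESeq2 size factors, a normalized signal without length correction, and 0 value columns lacked a sample. Reads carry no molecular identifiers, so floors of 3 reads cover counting error only. Depth was 17834745 to 32419578 reads on the listed genes.

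Members and gene lists were chosen with earlier results of these data known. Named members were those past both thresholds, the isoform genes, per complex the 3 highest and 3 lowest fold changes among called members, all mtDNA genes, catalytic subunits and any member at 0 in every tumor of a group. Some further members, such as *Ndufs6b*, are mentioned outside this rule. From each list up to 4 called genes with the largest change were named; *Higd1a* and the genes singled out beside them for their chromosome or motif were added after their values were seen, and 1 member of complex I that the rule names is not reported here. Cell type lists covered epithelium, lung epithelium, skeletal muscle, adipocytes, heart, macrophages, neutrophils, T cells, fibroblasts and endothelium.

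GENCODE vM21 (GRCm38) gave symbols, positions, exonic lengths and GC content and held 15655 of the 15687 identifiers (99.8%). Exonic length covers all annotated exons of a gene together, and GC content is that of its longest transcript. The log2 of each value plus 1 was analysed. Requiring an average of 5 normalized counts removed 0 genes, since the lowest mean in the table was 9.28, and 2 members, *Cox8b* and *Ndufs6b*, had CTL means below that value. Groups were compared over all 15687 genes with limma 3.58.1 (R 4.3.3), using a mean-variance trend, and single values and isoform shares with exact two-sided permutation tests over 924 arrangements, whose smallest p is 0.00216. Labels call the tumors biological replicates. On simulated data for this comparison with 15687 genes, 46 of 50 genes changed by 0.5 on the log2 scale and all 150 changed by 1 to 3 were called, as were 11 of 15487 unchanged genes. The simulation gave all genes the same relative spread, taken from CTL tumors, and changed only genes averaging 50 normalized counts or more. Its rates therefore do not cover genes at lower counts or with a wider spread, such as *Cox6a2*. Alternatives were pseudocounts of 0.5 and 8, other filters and scalings, no trend, a replicate block, removal of chromosome medians or of GC and length trends, and leaving out each tumor; leaving out CTL replicate 5 and KD replicate 1 together was added after seeing the data. The NRF1 motif was shortened by 1 base after the longer form had been searched. Motifs were searched with Python 3.11.15 and figures drawn with matplotlib 3.10.9.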

Additional observations from a re-analysis of the deposited data

Results flagged for a closer look

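In 6 of 106 groups of 6 tumors tested, 1 tumor stood far from the other 5 by Dixon's ratio, where chance alone gives about 1 in 20 groups. Among knockdown tumors, *Cox6a1* in KD replicate 1 was at 4012 normalized counts, with the next value at 5811, and KD replicate 1 was also the knockdown tumor with the lowest median of the nuclear members. *Ndufa4l2* in KD replicate 5 was at 274 normalized counts, with the next at 170.1, and *Ndufs1* in KD replicate 6 at 2571, with the next at 2239. Among CTL tumors, *Ndufv1* in CTL replicate 3 was at 3833 normalized counts, with the next at 3419. *mt-Nd3* in CTL replicate 2 was at 4.73 normalized counts, with the next at 9.0, both few reads. The share of *Cox7a1* beside *Cox7a2* in KD replicate 3 was 9.75%, with the next at 6.43%, and KD replicate 3 had the highest sum of skeletal muscle markers. The causes were not tested.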

How the results depend on the processing

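The 56 members higher and 1 lower in knockdown tumors were 49 to 60 and 1 under the 10 other alternatives that used all tumors, and 22 and 8 with GC and length trends removed, where calls also ended for 15 named members. That setting turned *Cox8a* to -0.20, *Ndufs5* to -0.018, *mt-Co1* to -0.0010, *mt-Cytb* to -0.12, *mt-Nd1* to -0.11, *mt-Nd4* to -0.026 and *mt-Nd6* to -0.011. It brought *Cox6b2* (-1.01), *Ndufa4*, *Ndufa4l2* and *Ndufv1* past the test as lower. Removal of chromosome medians turned *Ndufv1* to 0.25, and the fit without CTL replicate 5 and KD replicate 1, chosen after seeing the data, turned *mt-Co3* (-0.16, and -0.32 to -0.0076 on leaving out 1 tumor) to 0.036 and gave 64 higher members. Leaving out 1 tumor at a time gave 43 (without KD replicate 2) to 66 (without KD replicate 1) higher and 1 to 2 lower members, the second being *Ndufa4l2* without CTL replicate 2 or KD replicate 5. Throughout, 2 members were past both thresholds, of which *Cox8b* was listed only through its knockdown values. *Atp5j2*, *Atp5l* and *Ndufs5* lost their calls without CTL replicate 1, 2, 5 or 6 or KD replicate 2, 3, 5 or 6, at adjusted p up to 0.0904, *Uqcrb* without CTL replicate 2, 5 or 6 or KD replicate 2, 5 or 6, at up to 0.0589, and *Cox7a2* without KD replicate 2. *mt-Nd2* passed without CTL replicate 4 or KD replicate 1 (adjusted p = 0.0214 and 0.0276) and *mt-Nd6* without CTL replicate 4 (0.0444). Share differences ranged over these fits from 1.18 to 2.39 percentage points for *Cox6a2*, 1.27 to 2.30 for *Cox7a1*, 0.729 to 1.34 for *Cox8b* and -3.18 to -1.51 for *Ndufa4l2*.

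Same-numbered tumors did not deviate together, with correlations from -0.269 to 0.0990, and 0 of 6 tumors correlated best with their own number. With the replicate number as a block 49 members rose and 1 fell, and the *Cox7a1* share difference of 1.95 points had an exact permutation p of 0.0625. Count tests on whole reads were not run, because in some tumors whole reads could not be told from normalized values. Depth limits *Cox8b* and *Ndufs6b*, which lie near the worth of a few reads. *mt-Co2*, *mt-Co3*, *mt-Atp6* and *mt-Nd3* also lie near there, with nearly all of their 100-base windows shared with annotated pseudogenes.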

Other observations

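The mitochondrial ribosome makes the mtDNA-encoded subunits, and its proteins come from nuclear genes. Of 78 such genes 33 rose (42.3%, against 21.1% of all genes) and 5 fell (6.41%, against 20.7%), with a median log2 fold change of 0.19. Once GC and length trends were removed 11 rose and 10 fell, against 17.8% and 25.5% of all genes. The largest rises were those of *Mrpl57* (log2 fold change 0.69, SE 0.13, adjusted p = 0.000708), *Mrps16* (0.53, adjusted p = 0.000889) and *Mrpl52* (0.47, adjusted p = 0.00209), all on chromosome 14, where the median of all genes was 0.39. *Mrps6* on chromosome 16 had the largest fall, from a median of 756 normalized counts in CTL to 531 in knockdown tumors, without overlap between the groups (log2 fold change -0.53, SE 0.090, adjusted p = 0.000336), and the other 4 that fell, *Mrpl11*, *Mrpl21*, *Mrpl43* and *Mrpl49*, lie on chromosome 19. *Higd1a*, a hypoxia-induced protein that binds complex IV, ranged from 908 to 1332 normalized counts in the CTL group (median 1018) and from 1225 to 2335 in the knockdown group (median 2085) (log2 fold change 0.82, SE 0.15, adjusted p = 0.000519).

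Among markers of other cell types, all 4 neutrophil genes rose, led by *S100a9* (1.87, adjusted p = 7.76e-07), and 3 of 4 endothelial genes rose, led by *Pecam1* (0.54, adjusted p = 0.000564). Of 4 fibroblast genes *Col1a1* and *Col1a2* fell (-0.76, adjusted p = 0.0108, and -0.97, adjusted p = 0.00626). Of 5 epithelial genes 4 rose, led by *Krt19* (1.65, adjusted p = 1.15e-05), and of 3 lung epithelial genes measured *Sftpb* alone rose (2.80, adjusted p = 0.0463). The groups overlapped for *Sftpb*, at 0.947 to 94.1 normalized counts in CTL and 17.6 to 760 in knockdown tumors. Its exact two-sided permutation p was 0.0606. Of 4 macrophage genes *Cd68* alone passed the test (0.36, adjusted p = 0.0401), and of 5 T cell genes 0 passed, with adjusted p from 0.281 to 0.947 for *Cd4* and *Cd3d*, the lowest and the highest. The part of these cells in the values of the respiratory genes was not tested.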
